A study of Mus musculus with 8 samples.

Results

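miR-129, miR-31, miR-365, miR-147 and miR-455 are 5 of the 482 miRNA numbers that the 2 deposited small RNA tables listed for mouse bone marrow-derived macrophages. They were selected on values of these same libraries, which were low without stimulation and higher with the cytokine TNF, so their TNF differences are given as descriptions, with no test. The first table holds CPM (counts scaled to 1e6 miRNA reads) for 452 mature arms, of which 5 belong to these miRNAs. The second holds values read as RPKM (CPM per kilobase of hairpin gene) for 371 hairpin genes, of which 7 belong to them. miR-455 was listed in the RPKM table alone, and the other 4 in both.

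Marrow cells were cultured for 3 days with M-CSF at the equivalent of 20 ng/ml, and came from mice of a mixed C57BL/6 and 129 background that was over 90% C57BL/6. The 4 groups were wild type (WT) without stimulation, WT with TNF for 24 hours, and the RBP-J knockout (KO, genotype Rbpjf/f; LysM Cre) under the same 2 conditions. Each group had 2 libraries, 1 in each table. LysM Cre acts in myeloid cells, so the deletion is limited to the lineage and depends on how completely Cre acted, and RBP-J itself was not measured by these tables. The labels do not give the TNF dose, the animals' age or sex, whether wild type mice carried the floxed or Cre alleles, or whether replicates came from separate animals.

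A miRNA is cut from 1 arm of an RNA hairpin, and its seed (bases 2 to 8) sets most of its pairing with target mRNAs. TNF acts on macrophages largely through NF-kB, and RBP-J is the DNA-binding protein of the Notch pathway, which in macrophages also restrains osteoclast formation under TNF. miR-147 is known from mouse macrophages as an inducible miRNA that dampens cytokine output after Toll-like receptor stimulation. miR-31 is known as a TNF-induced miRNA of human endothelial cells, where it acts on E-selectin, and miR-365 as a regulator of human IL-6 mRNA. miR-129 is best known from brain and as a regulator of Sox4 in human tumours, and miR-455 from cartilage.

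The mature sequences are shown because they decide which reads can be told apart, with the seed in capitals. All are 5′ to 3′ from RefSeq on GRCm38.p6. miR-147-3p, the arm listed for miR-147, is named only.
miR-129-5p: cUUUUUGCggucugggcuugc
miR-31-5p: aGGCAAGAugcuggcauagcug
miR-365-3p: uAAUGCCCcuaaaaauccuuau
miR-365-2-5p: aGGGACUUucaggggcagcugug
miR-365-1-5p: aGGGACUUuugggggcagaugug
miR-455-5p: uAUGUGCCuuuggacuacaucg
miR-455-3p: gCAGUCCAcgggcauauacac
Among the arms printed here, no seed was shared between different members; miR-147-3p was not compared. The 5p arms of the miR-365 copies share their seed and differ at 3 of 23 positions, counted from the 5′ end of miR-365-1-5p: U10C, G11A and A19C. Reads of that arm can thus be assigned to a copy, whereas miR-365-3p is the same sequence in both copies.

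miR-129-5p is likewise the same in both miR-129 hairpins, shown here with that arm in capitals.
Mir129-1: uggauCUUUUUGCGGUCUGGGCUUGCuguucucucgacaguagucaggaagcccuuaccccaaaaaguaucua
Mir129-2: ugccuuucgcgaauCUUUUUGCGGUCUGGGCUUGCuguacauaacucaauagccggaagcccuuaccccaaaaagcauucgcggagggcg
Mir129-1 (chr6:29022619-29022691, plus strand) lies in an exon of the lincRNA Gm3294, and Mir129-2 (chr2:94241364-94241453, minus strand) in an intron of Mir670hg. Mir129b overlaps Mir129-2 on the opposite strand, and whether strand was used in counting is not given in the sources used here. Mir31 (chr4:88910557-88910662, minus strand) lies in an exon of the lincRNA AL805899.1. Mir147 (chr2:122640803-122640881, plus strand) lies in an untranslated exon of AA467197, and Mir455 (chr4:63256851-63256932, plus strand) in an intron of the collagen gene Col27a1. Mir365-1 (chr16:13453840-13453926, plus strand) lies 4239 bases from Mir193b, and Mir365-2 (chr11:79726400-79726511, plus strand) 14366 bases from Mir193a. These positions are those of GENCODE M21 on GRCm38, matched by Ensembl identifier, since the build behind the tables is not given in the sources used here.

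Depth differed widely between the tables and sets how far each value can be read. The CPM libraries had from 321327 to 848652 reads, so that 1 read was worth 1.18 to 3.11 CPM. In that table depth ran with treatment. The unstimulated libraries had 321327 (WT) and 353138 (KO) reads, and the TNF libraries 562318 (WT) and 848652 (KO). The totals behind the RPKM values were 13574375 to 21712260 reads, inferred from the value of 1 read. Listed miRNA genes held 6647014 to 12701599 reads per library. Their share of the total differed between groups and was higher with TNF in each genotype. RPKM folds with TNF are thus larger than folds in the share of listed miRNA reads. Intervals below are exact 95% intervals from recovered reads and cover counting error only. The 5 myeloid miRNAs miR-223, miR-142a, miR-155, miR-146a and miR-21a were listed in every library. They summed to 91415 to 117407 CPM, mostly miR-21a (48455 to 92850 CPM), while miR-223 had 989 to 4522 CPM. All but miR-142a are also on the list of TNF and NF-kB responsive miRNAs used below. Their presence alone does not establish macrophage identity. Libraries correlated with each other at 0.894 to 0.976 within the CPM table and at 0.967 to 0.99 within the RPKM one.

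In the CPM table miR-129 was absent from both unstimulated libraries and present in both TNF libraries. It had 0 reads in unstimulated WT, 42 reads or 74.69 CPM in WT with TNF, 0 reads in unstimulated KO and 28 reads or 32.99 CPM in KO with TNF. A count of 0 allows up to 9.34 CPM in unstimulated WT and 8.50 CPM in unstimulated KO, taken as 3 reads per library. Against that limit the TNF libraries were at least 8.0-fold higher in WT and at least 3.88-fold higher in KO. With the counting error of the TNF library included, the lower limit of the exact interval was 6.23-fold in WT and 2.96-fold in KO. In the RPKM table both copies of miR-129 summed to 85.9, 308, 14.7 and 69.8 RPKM in unstimulated WT, WT with TNF, unstimulated KO and KO with TNF. The fold with TNF was 3.58 in WT (interval 3.01 to 4.29) and 4.75 in KO (2.96 to 8.55). WT with TNF stood highest and unstimulated KO lowest, while the intervals of unstimulated WT and KO with TNF overlapped.

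miR-31 showed the same absence and presence in the CPM table. It had 0 reads in unstimulated WT, 22 reads or 39.12 CPM in WT with TNF, 0 reads in unstimulated KO and 32 reads or 37.71 CPM in KO with TNF. The same limits give at least 4.19-fold higher in WT and at least 4.44-fold higher in KO, and the lower limits of the exact intervals were 3.13-fold and 3.41-fold. The RPKM table gave another picture, with 1150, 1723, 186 and 701 RPKM in the same order. Here miR-31 was well covered without TNF, at 2647 reads in unstimulated WT, and the fold with TNF was 1.5 in WT (1.42 to 1.58) and 3.77 in KO (3.30 to 4.30). None of its RPKM intervals overlapped, and both WT libraries stood above both KO libraries.

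miR-365, summed over its arms, had 46.68 CPM in unstimulated WT, 149 CPM in WT with TNF, 19.82 CPM in unstimulated KO and 96.62 CPM in KO with TNF, from 15, 84, 7 and 82 reads. The fold with TNF was 3.20 in WT (1.83 to 5.97) and 4.88 in KO (2.26 to 12.5). Summed over copies in the RPKM table, it had 15.1, 30.9, 3.94 and 36.9 RPKM, from 35, 66, 6 and 55 reads. There the fold was 2.04 in WT (1.39 to 3.29) and 9.37 in KO (4.34 to 28.6). Both TNF libraries stood above both unstimulated ones in each table, and in each table the intervals of the 2 TNF libraries overlapped. By CPM the interval of KO with TNF (76.8 to 120) also just overlapped that of unstimulated WT (26.1 to 77.0).

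miR-147 was higher with TNF in every pair of libraries, but not with the same weight. In the CPM table it had 9.34, 16.01, 8.50 and 53.03 CPM, from 3, 9, 3 and 45 reads. The fold with TNF was 1.71 in WT, with an interval from 0.428 to 9.85 that includes no change, and 6.24 in KO (2.00 to 31.4). In the RPKM table it had 358, 1117, 252 and 814 RPKM, and the folds were 3.12 in WT (2.84 to 3.43) and 3.22 in KO (2.82 to 3.69). TNF libraries stood above unstimulated ones there, with no overlap of intervals, and WT above KO under each condition.

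miR-455 had 69.1, 416, 19.7 and 179 RPKM in unstimulated WT, WT with TNF, unstimulated KO and KO with TNF. From 123, 660, 24 and 199 reads, the fold with TNF was 6.02 in WT (4.96 to 7.36) and 9.10 in KO (5.94 to 14.5). The 4 levels had separate intervals, and the highest was WT with TNF. It was not among the listed arms of the CPM table, where every listed row reached at least 5.34 CPM in some library. That table thus shows no rise of miR-455, and its values rest on 1 library per group. Whether its arms fell below that level or were left out otherwise is not given.

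**Figure D1:**
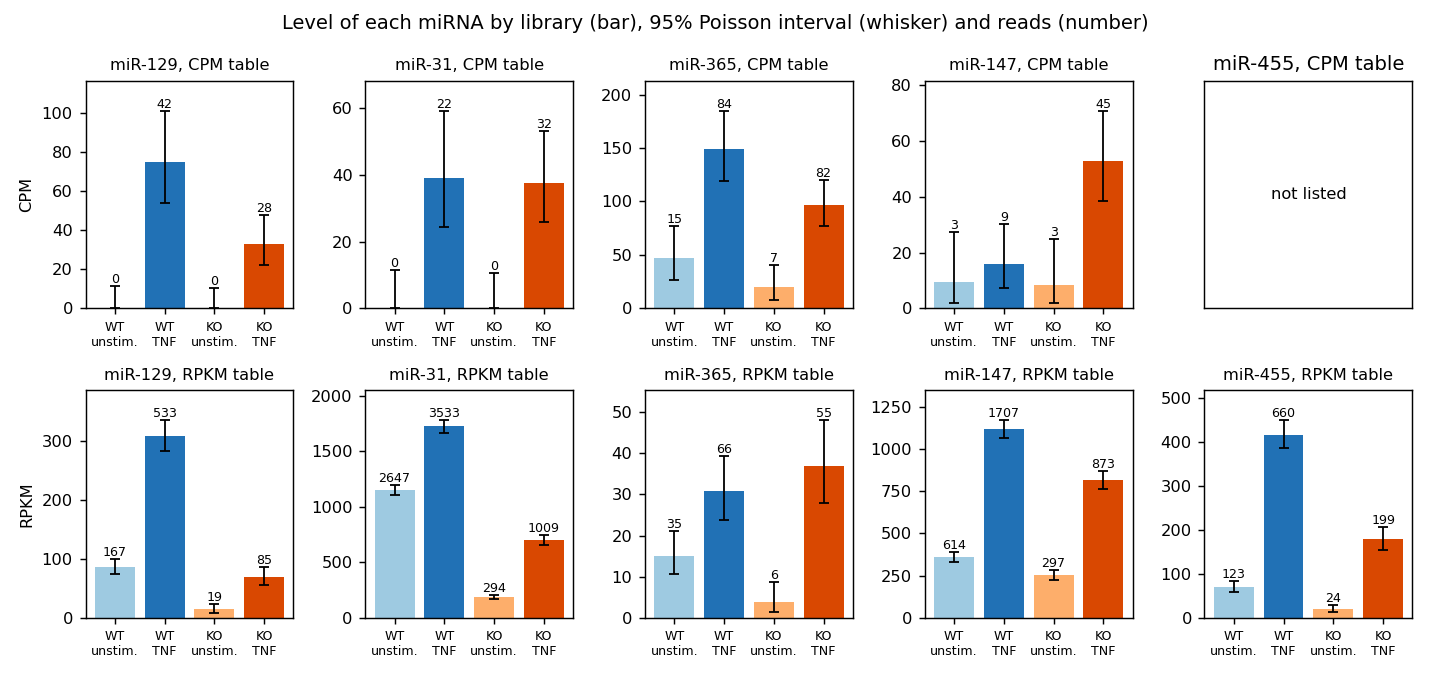
Level of each miRNA in every library, in CPM (upper row) or RPKM (lower row) on linear axes that start at 0, for unstimulated (unstim.) and TNF-treated wild type (WT) and RBP-J knockout (KO). Bars are single libraries, whiskers the 95% Poisson interval of the reads, and numbers the recovered reads. TNF bars stand above unstimulated bars of the same genotype in all 9 panels that hold values.

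The members were chosen for being higher with TNF, so their values are set beside those of all miRNAs as a description only. Over the 184 miRNAs tested, the median log2 difference with TNF in WT was -0.62 for CPM and 0.38 for RPKM, and in KO -0.41 and 0.31. All differences in log2 are on the log2(value + 1) scale, which understates changes of low values above 0. From 0 reads, as by CPM for miR-129 (6.24 log2 in WT) and miR-31 (5.33), the size depends on the added 1. Both values exceed the lower limits given above. On that scale 1 of the 4 members listed in both tables, miR-129, was at least 2-fold higher in both in WT, as were 2.17% of the 184. miR-365 missed it in the RPKM table at 0.98 log2, although its values without the added 1 differed by 2.04-fold. In KO all 4 were, as were 8.15% of the 184. Among 28 other miRNAs with as few CPM table reads in all (54 to 188), 0 in WT and 1 in KO (3.57%) were. With median-of-ratios scaling 2 of the 4 passed that fold in WT, miR-129 and miR-147, and again 2.17% of all. On that scaling miR-365 was at 0.60 log2 in the RPKM table in WT. Relative to the median of the RPKM table, miR-31 was only 0.20 log2 higher with TNF in WT, against 1.60 in KO. With the listed RPKM values of each library scaled to the same sum, the WT difference was 0.18 log2 for miR-31 and 0.60 for miR-365. It was 1.24 for miR-147, 1.43 for miR-129 and 2.17 for miR-455.

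**Figure D2:**
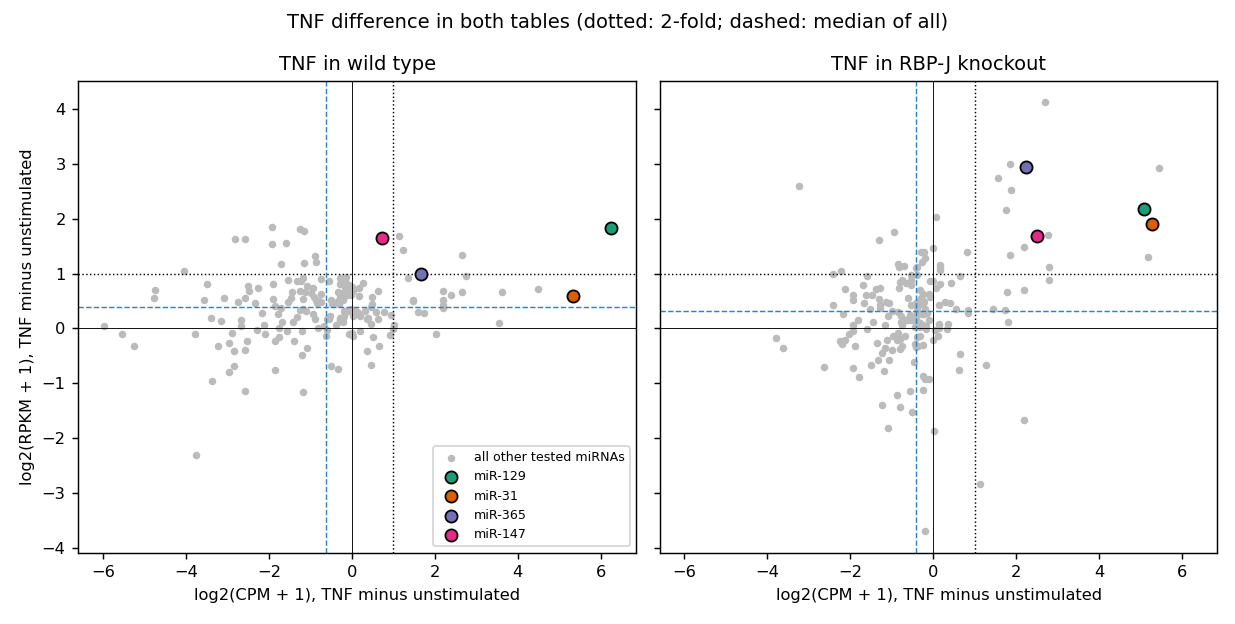
Log2 difference between TNF and unstimulated libraries for the 184 tested miRNAs, in the CPM table (x axis, log2 of CPM + 1) and the RPKM table (y axis, log2 of RPKM + 1), with wild type on the left and the RBP-J knockout on the right. Coloured points are 4 of the chosen miRNAs, dotted lines mark 2-fold and dashed lines the median over the 184. In the knockout all 4 lie beyond both dotted lines, in wild type miR-129 alone does.

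The TNF difference was also set between genotypes, in each table on its own. The KO difference minus the WT difference for miR-129 was -1.16 log2 by CPM and 0.34 by RPKM. For miR-31 it was -0.05 and 1.32. With 0 reads without TNF in both genotypes, the CPM values of both equal the difference between the TNF libraries, and that of miR-31 becomes 0.03 with median-of-ratios scaling. miR-365 had 0.57 and 1.96, and miR-147 had 1.79 and 0.05. For miR-365 and miR-147 the sign was the same in both tables, with KO larger, and within each genotype the fold intervals of the tables overlapped. miR-455 had 0.55 in its RPKM table. Neither these differences nor their disagreement between tables was tested, since the members were chosen on TNF values.

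Loss of RBP-J went with lower levels of most of these miRNAs in the RPKM table. In unstimulated cells KO was lower than WT for miR-31 by 6.18-fold (5.47 to 6.99), for miR-129 by 5.85-fold (3.74 to 10.3), for miR-365 by 3.83-fold (1.67 to 11.6) and for miR-455 by 3.52-fold (2.26 to 5.69). miR-147 was lower by 1.42-fold (1.23 to 1.63). Thus 4 of the 5 were at least 2-fold lower, as were 10.9% of all 350 miRNA numbers of the table and 15.5% of the 187 with a mean of at least 20 RPKM. With TNF, miR-129 was lower in KO by 4.42-fold (3.50 to 5.60), miR-31 by 2.46-fold (2.29 to 2.64), miR-455 by 2.33-fold (1.98 to 2.74) and miR-147 by 1.37-fold (1.26 to 1.49). miR-365 was instead 1.20-fold higher in KO, with an interval (0.815 to 1.72) that includes no change. Lower levels in KO under both treatments were thus seen for 4 of the 5, against 37.7% of the 350 and 49.7% of the 187, so the direction alone was common in this table. These intervals compare single libraries. The median KO minus WT difference over the 184 tested was -0.08 log2 in unstimulated cells and -0.20 with TNF. With the listed values of each library scaled to the same sum, that median was 0.09 and 0.08. On that scale miR-129 had -2.30 and -1.82, miR-31 -2.44 and -0.99, and miR-455 -1.59 and -0.905. miR-147 had -0.32 and -0.15, and miR-365 -1.57 and 0.55.

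The CPM table carried less of this pattern. Neither miR-129 nor miR-31 had a read without TNF in either genotype, so no fold can be given there. miR-147 had 3 reads in each. miR-365 was 2.35-fold lower in KO, with an interval (0.904 to 6.83) that includes no change. With TNF, miR-129 was 2.26-fold lower in KO (1.37 to 3.79) and miR-365 1.55-fold lower (1.13 to 2.12). miR-31 was level, at 39.12 and 37.71 CPM, and miR-147 was 3.31-fold higher in KO (1.60 to 7.71), against its lower level in the RPKM table.

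Taken over both tables, none of the 4 passed for the knockout. Limma with the table as a block gave log2 fold changes averaged over treatment of -1.44 ± 0.86 (SE) for miR-129 (adjusted p = 0.859), -0.99 ± 0.90 for miR-31 (0.919), -0.82 ± 0.57 for miR-365 (0.889) and 0.15 ± 0.57 for miR-147 (0.999). In limma 1 of 184 miRNAs passed in that comparison, which is 0.543%, and it was miR-151. On recovered reads edgeR called 1, and DESeq2 called 2, which is 1.09%. For unstimulated cells limma gave -1.24 ± 1.21 for miR-129, -1.31 ± 1.27 for miR-31, -1.45 ± 0.80 for miR-365 and -0.31 ± 0.81 for miR-147 (adjusted p from 0.833 to 0.960). For miR-129 and miR-31 the fit took a CPM difference of 0, which stands for 0 reads in both genotypes. Their RPKM differences were -2.47 and -2.62 log2. The values averaged over treatment hold the same 0. No miRNA of the 184 passed in unstimulated cells (0%), 5 reached an unadjusted p under 0.05, all of them lower in KO, and edgeR and DESeq2 called 0. With median-of-ratios scaling 4 higher and 7 lower reached it. Without the unstimulated WT library of the RPKM table the unstimulated values of miR-129 and miR-31 changed sign, to 0.81 and 0.92. The unstimulated WT library then left had 0 reads of both.

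**Figure D3:**
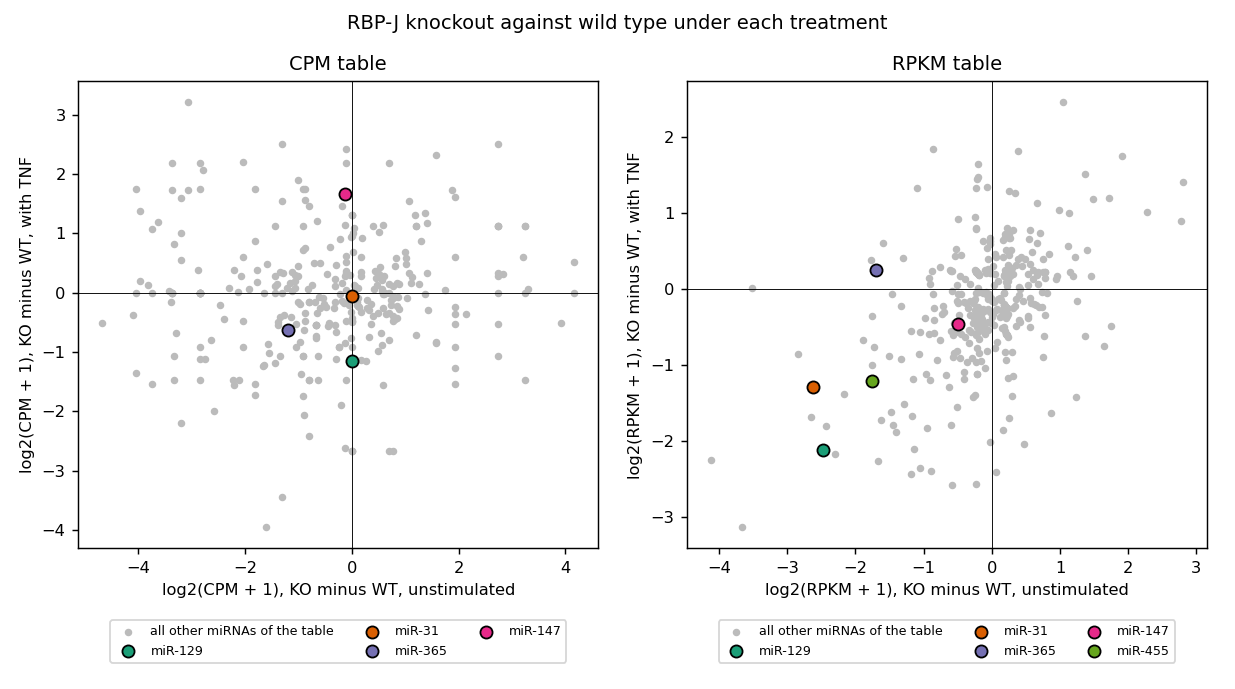
Log2 difference between RBP-J knockout (KO) and wild type (WT) libraries, unstimulated on the x axis and with TNF on the y axis, in log2 of CPM + 1 (left) and of RPKM + 1 (right). Each point is a miRNA number of the table, with the chosen miRNAs coloured. In the RPKM table miR-129, miR-31, miR-147 and miR-455 lie below 0 on both axes, while in the CPM table miR-129 and miR-31 lie at 0 on the x axis because neither had an unstimulated read.

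Some markers of other cell types differed between the same groups in the RPKM table. Of the 9 stromal and cartilage markers, 8 were listed there, none at 0, and summed to 217662 to 365420 RPKM, mostly miR-10a. The CPM table listed 7, none at 0, which summed to 14101 to 32882 CPM. Within this list the smooth muscle and fibroblast miR-143 had 16593, 51576, 3380 and 11410 RPKM in unstimulated WT, WT with TNF, unstimulated KO and KO with TNF. Its cluster partner miR-145 had 352, 1118, 110 and 232 RPKM, and miR-214 had 199, 503, 89.7 and 116 RPKM. Together with miR-140 and miR-152, 5 of the 8 were higher with TNF in both genotypes and lower in KO under both treatments, as were miR-129, miR-31, miR-147 and miR-455 and 24.9% of the 350. The other stromal markers were not: miR-10a was higher in KO, miR-10b was lower with TNF in both genotypes, and miR-199a was lower with TNF in KO.

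The 8 epithelial markers summed to 534, 1283, 461 and 767 RPKM in the same order, higher with TNF and lower in KO. miR-200b, the highest of them by mean, had 243, 833, 125 and 384 RPKM. With miR-200a, miR-429 and miR-203 it made 4 of the 8 that were higher with TNF and lower in KO throughout, against 24.9% of the 350. The others were not: miR-200c was lower with TNF and higher in KO, at 160, 137, 240 and 193 RPKM. miR-141 was higher in KO under both treatments, and miR-205 and miR-375 were lower with TNF in WT. Of the other lists, the same pattern in the RPKM table was met by 0 of 5 listed myeloid and 1 of 4 neuronal markers. It was also met by 1 of 3 lymphoid, 2 of 3 erythroid and 0 of 1 endothelial markers. In the CPM table the sums of the stromal and epithelial lists were instead lower with TNF in both genotypes. None of the 7 stromal and 8 epithelial markers was higher with TNF in both genotypes there, where 51 of all 329 miRNA numbers were. The 4 chosen miRNAs listed there were too, but they had been selected for that rise. miR-143 had 80.91, 10.67, 50.97 and 25.92 CPM, and the epithelial markers summed to 97.8 to 358 CPM, with miR-200a, miR-203, miR-205 and miR-375 at 0 in at least 1 CPM library. The part of other cell types in these values was not tested, and in bulk RNA fewer cells of a type and less RNA per cell cannot be told apart.

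By mean level these miRNAs were not among the scarcest of either table. For the 4 listed in the CPM table, the name scarce describes their read counts there rather than their rank. In the CPM table they ranked 124 to 169 of 329 miRNA numbers, and 3 of the 4 lay above the median of 19.9 CPM. In the RPKM table miR-31 ranked 95 and miR-147 ranked 103 of 350, miR-455 138, miR-129 149 and miR-365 186. Levels set across the tables come from libraries that were normalized separately, so shares of the listed miRNA reads are given as a description. In unstimulated WT the RPKM table share of miR-31 was 244 CPM of listed miRNA reads. That share would amount to 78.4 reads in the CPM library, where there were 0. In KO with TNF the same calculation gives 119 reads for miR-31, where there were 32, and 103 for miR-147, where there were 45. miR-365 differed the other way, with 1.04 reads by its RPKM table share in unstimulated WT and 15 found, and 2.92 in WT with TNF and 84 found. For miR-129 the shares gave 23.6 and 9.99 reads in the TNF libraries, where there were 42 and 28.

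**Figure D4:**
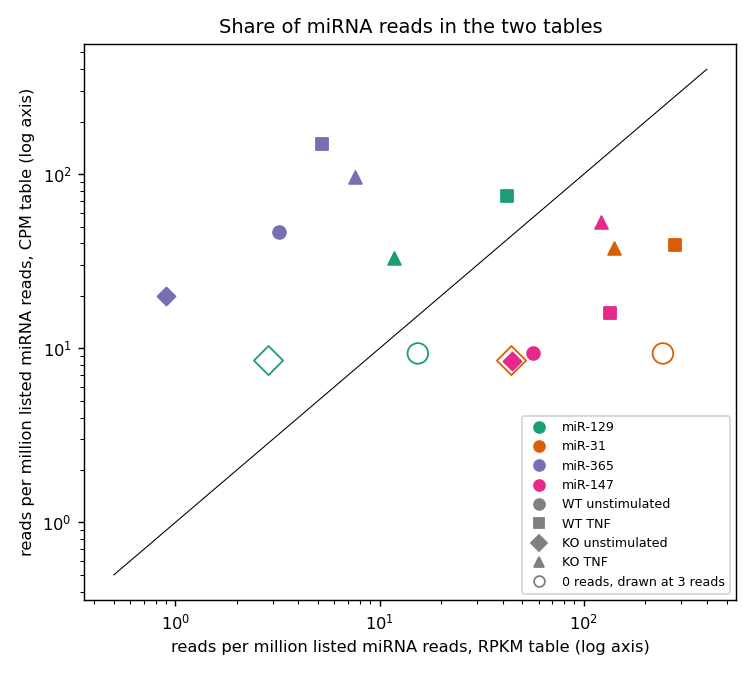
Share of listed miRNA reads, in CPM, in the RPKM table (x axis) and the CPM table (y axis), both log axes, for 4 miRNAs (colours) in 4 groups (symbols) of wild type (WT) and RBP-J knockout (KO), with the line of equal shares. Large open symbols mark 0 reads and are drawn at 3 reads. miR-365 lies above the line in all 4 groups, miR-31 and miR-147 below it.

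The reads of miR-365 and miR-129 were listed by arm in 1 table and by hairpin copy in the other. In the CPM table the 5p arm of copy 2, miR-365-2-5p, had more reads than miR-365-3p, which is the arm usually named as the miRNA. The 5p arm had 13, 70, 5 and 54 reads in unstimulated WT, WT with TNF, unstimulated KO and KO with TNF, and miR-365-3p had 2, 14, 2 and 28. Its share of both arms was 86.7% (exact interval 59.5 to 98.3), 83.3% (73.6 to 90.6), 71.4% (29.0 to 96.3) and 65.9% (54.6 to 76.0) in the same order. miR-365-1-5p was not among the listed arms. With TNF miR-365-2-5p was 3.08-fold higher in WT (1.69 to 6.06) and 4.49-fold higher in KO (1.81 to 14.4). For miR-365-3p the folds were 4.0 in WT, with an interval (0.919 to 36.3) that includes no change, and 5.83 in KO (1.47 to 50.5).

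The RPKM table also put most miR-365 reads on copy 2. Mir365-2 had 29, 63, 4 and 51 reads in the same order, and Mir365-1 had 6, 3, 2 and 4. The share of Mir365-2 was 95.5% in WT with TNF (87.3 to 99.1) and 92.7% in KO with TNF (82.4 to 98.0). Mir129-2 likewise had 163, 519, 16 and 84 reads, against 4, 14, 3 and 1 for Mir129-1, or 84.2% to 98.8% of both. How reads of the shared arms were divided between copies is not given in the sources used here, so the split is uncertain for miR-129-5p and miR-365-3p. Mir193b, next to Mir365-1, had 45.5, 124, 12.7 and 61.5 RPKM, higher with TNF by 2.73-fold in WT (2.09 to 3.61) and 4.83-fold in KO (2.73 to 9.11). It was not listed in the CPM table, and miR-193a in neither.

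**Figure D5:**
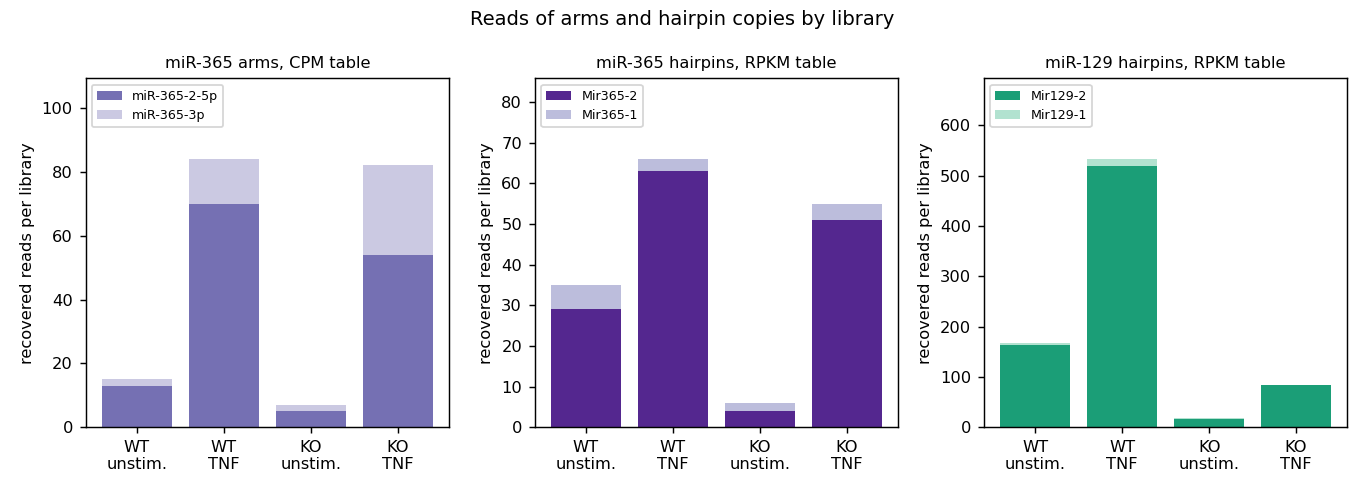
Recovered reads per library, stacked, for the miR-365 arms of the CPM table (left) and for the miR-365 (centre) and miR-129 (right) hairpin copies of the RPKM table, in unstimulated and TNF-treated wild type (WT) and RBP-J knockout (KO). The 5p arm of copy 2 and the hairpins Mir365-2 and Mir129-2 make up most of each bar.

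The members' patterns over libraries were set side by side. Likeness was measured as Pearson's r over the 8 libraries of log2(value + 1) after subtracting the mean of each table. Libraries of a table were deposited together and differed in depth. By this measure miR-129 and miR-31 were most alike at 0.984, and miR-365 and miR-147 correlated with them and with each other at 0.735 to 0.834. The members were chosen on these same libraries, so likeness among them is in part fixed by that choice. Outside the group, miR-31 was most like miR-34c (0.954) and miR-449c (0.950), and miR-129 like miR-34c (0.950) and miR-449c (0.918). These 2 belong to a family known for its link to p53 and ciliated cells. miR-34c had 3.11, 49.79, 0 and 35.35 CPM and 1905, 3006, 351 and 863 RPKM, low and high in the same libraries as miR-31. miR-449c had 0, 12, 0 and 36 CPM table reads and 16.9, 28.5, 4.93 and 43.9 RPKM. By RPKM it was highest in KO with TNF, whereas miR-31 and miR-129 were highest in WT with TNF. Each of these miRNAs had 0 or 1 reads in the unstimulated CPM libraries, so these r values depend on the added 1.

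miR-147 was most like miR-155, the best known inflammatory miRNA of macrophages, at 0.969, and next like miR-1930 (0.877), which had at most 5 CPM table reads. miR-155 had 177, 391, 156 and 1075 CPM and 2655, 8523, 2814 and 9177 RPKM. As in miR-147, the CPM level in KO with TNF stood above that in WT with TNF. miR-365 was most like miR-221 (0.929) and miR-222 (0.926), abundant cell cycle regulators. miR-222 had 26976, 75036, 22699 and 39671 CPM, and 88272, 124160, 64520 and 168870 RPKM.

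Of 14 miRNAs listed as TNF and NF-kB responsive, 12 were tested. With TNF in WT, both tables put 5 of them higher and 2 lower, and in KO 5 higher and 3 lower. Over all 184, 24.5% were higher in both tables in WT and 21.2% in KO. Only miR-155 of the 12 was at least 2-fold higher in both tables, in each genotype. The list's median log2 difference was -0.11 by CPM and 0.68 by RPKM in WT, and 0.03 and 0.73 in KO, against the medians over the 184 given above. In limma 0 of the 12 passed for the knockout, in unstimulated cells or averaged.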

How the data were processed

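Small RNA libraries (Illumina TruSeq, per the labels' protocols) were base-called with CASAVA 1.8.2, per the submitters' processing notes. Aligner, counter and build are not given in the sources used here. The authors deposited CPM per mature miRNA in 1 table, where every row exceeded 5 CPM in at least 1 library. The other deposited table names no unit and was read as RPKM per hairpin gene, because values times the GENCODE M21 length (363 of 371 identifiers) were whole reads. Low values under 100 reads were whole at a tolerance of 0.1 reads for 100% (CPM) and 94.3% to 95.2% (RPKM), and no RPKM row held a 0.

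Arms and copies were summed per miRNA number, with 20 older symbols updated through RefSeq names, which gave 197 numbers in both tables and 184 with a mean of at least 5. Limma 3.58.1 in R 4.3.3 fitted log2(value + 1) with the table as a block (two-sided, Benjamini-Hochberg at 0.05). edgeR 4.0.16 and DESeq2 1.42.0 were alternatives on recovered reads. Scripts were tested on simulated data. Named miRNAs are the members, their neighbours, and the 2 most alike in pattern per member. Members and lists were chosen with earlier results of these data known. Replicates may be technical, and p-values then measure only that spread.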

Additional observations from a re-analysis of the deposited data

Results flagged for a closer look

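A few single arms and copies had opposite directions in the groups set side by side, in the only table that lists them. None of these differences was tested, each rests on 1 library per group, and for each at least 1 of the opposite folds has an exact interval that includes no change. Mir129-1 was higher with TNF in wild type (4 and 14 reads) and lower in the knockout (3 and 1 reads, interval of the fold 0.00697 to 4.55), a log2 difference of -2.54 between genotypes, and the same number holds for the knockout effect between treatments. Mir365-1 was lower with TNF in wild type (6 and 3 reads, 0.0908 to 2.63) and higher in the knockout (2 and 4 reads, 0.315 to 24.3), a difference of 1.37 either way. Mir365-2 was lower in the knockout without TNF (29 and 4 reads) and higher with it (63 and 51 reads from a smaller knockout library, 0.781 to 1.70), a difference of 2.13. miR-365-3p did the same in the CPM table (2 and 2 reads, 0.0660 to 12.6, then 14 and 28 reads, 0.675 to 2.72), a difference of 0.51.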

How the results depend on the processing

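The members were chosen for a positive TNF difference, so its direction shows nothing of stability. Its median over the 4 in both tables was 2.61 log2 as reported, 3.48 with a pseudocount of 0.1 and 1.92 with a pseudocount of 5. For miR-129 in WT, with 0 unstimulated reads by CPM, the mean over tables was 4.04, 5.69 and 2.89 in the same order. The median over the 4 ranged from 1.98 to 3.29 log2 when 1 library was left out. The number at least 2-fold higher in both tables in wild type was 2 rather than 1 with a pseudocount of 0.1 (2.72% of all miRNAs), with median-of-ratios scaling (2.17%) and with the most abundant arm and copy (2.72%). The second member was miR-147 with median-of-ratios scaling and miR-365 with the other settings. These counts and shares were not run without single libraries, since both tables are needed. For the knockout averaged over treatment, the number of miRNAs called was 0 with no replicate block and 2 with DESeq2, and 0 to 4 when 1 library was left out, against 1 in the reported fit. It was 0 without unstimulated WT, unstimulated KO or KO with TNF of the CPM table or unstimulated KO of the RPKM table, and 4 without WT with TNF (CPM) or unstimulated WT (RPKM). For the unstimulated knockout it was 0 to 5 when 1 library was left out, against 0, with 5 without unstimulated WT of the RPKM table and 3 without either TNF library of the CPM table. Columns carry no replicate number, so the block is the table. No member passed under any alternative. Adjusted p ranged from 0.0948 to 1 for miR-129 and from 0.145 to 1 for miR-31, averaged over treatment. Leaving out unstimulated WT (RPKM) changed the sign of miR-129 and miR-31 when unstimulated (0.81 and 0.915) and of miR-31 averaged (0.121). Over all libraries left out, the lowest values of these were -3.28, -3.54 and -2.10. miR-147 averaged changed sign without WT (-0.215) or KO (-0.199) with TNF of the CPM table, and was 0.509 at its highest. The cause was not tested. Without TNF, each of the 4 members listed in the CPM table had 0 to 15 reads there.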
